A study of Bos taurus with 5 samples.

Results

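Expression of the genes that carry cholesterol into the steroid-making cell and turn it into progesterone was compared between bovine largest (F1) and second-largest (F2) follicles. The 5 genes SCARB1, STAR, CYP11A1, HSD3B1 and NR5A1 were each represented by the single probe that carries the bovine RefSeq mRNA accession of the gene, out of 10163 probes on the array. Each F1 (n = 3) and F2 (n = 2) came from a pregnant Japanese Black cow, had its stroma and theca externa dissected away, and was hybridized singly to a one-color Cy3 array. What was measured is therefore total RNA of granulosa cells and theca interna together. The labels name no treatment and no age of the cows. By the numbers of cows and follicles in the methods, an F2 on these arrays must share a cow with an F1, though which is not given. The stage of the follicular wave was not fixed. The p-values below treat follicles as independent, although not all of them are.

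Steroid synthesis starts with cholesterol, which follicular cells take up from lipoproteins, in part through the scavenger receptor encoded by SCARB1. The STAR protein moves cholesterol to the inner mitochondrial membrane, where the side-chain cleavage enzyme CYP11A1 turns it into pregnenolone with electrons passed on by FDXR and FDX1. HSD3B1, a 3-beta-hydroxysteroid dehydrogenase, then makes progesterone. NR5A1, also called steroidogenic factor 1, is a nuclear receptor that binds the promoters of many of these genes. In the follicle, theca cells run these steps to supply androgens, and granulosa cells take them up strongly as they luteinize.

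The probes were 60 bases long. The last 30 bases (positions 31 to 60 from the 5′ end) of each are shown because every value below rests on hybridization to a single such sequence, with the letters AATAAA, the common polyadenylation signal, in capitals where present.
SCARB1: aaataattcacaattgaagtAATAAAcctt
STAR: ggggcctggggagatcttttctcacttgtt
CYP11A1: atgaagctggcactcaggggtcagctgctt
HSD3B1: taacttcgagttttgcctcttagtcccact
NR5A1: gtcatcccttcgtcctctcctgggagcaga
The SCARB1 probe held AATAAA from position 51, as did 8.88% of all probes somewhere in their sequence, read on the strand given in the files. GC content was 23.3% in the SCARB1 probe, with only 0.492% of all probes lower, and 60.0% in the NR5A1 probe, with 95.8% lower. STAR, CYP11A1 and HSD3B1 had 45.0%, 55.0% and 43.3%, against a median of 43.3% over all probes. None of the 5 shared 20 or more bases in a row with any other probe on either strand, and the longest shared run was 14 bases. No second probe of these genes was found in this way, so each gene rests on 1 spot per array.

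Signals are given as the processed intensity of the spot divided by the median of the 100 GAPDH spots of the same array. This median ranged from 868.7 to 1411.2 intensity units over the 5 arrays. Each array had 5465 to 5855 probes well above background, that is, clear of the local noise by the criterion of the scanner software. A probe was tested if all F1 or all F2 arrays had it well above background, which left 5528. These were compared between F1 and F2 on the log2 scale with limma, with Benjamini-Hochberg adjustment over all of them. Of these, 634 (11.5%) had an adjusted p under 0.05, 6.39% higher in F1 and 5.08% higher in F2. Which group had more calls depended on the scaling, with 353 higher in F1 and 281 in F2 here, 421 and 442 with the 75th percentile of each array in place of GAPDH, and 440 and 461 with quantile normalization. The number of arrays limits the precision, and with 3 follicles against 2 the smallest p of an exact permutation test is 0.1. STAR, CYP11A1, HSD3B1 and NR5A1 were tested. SCARB1 did not reach the criterion in all follicles of either group and was not. No spot of the 5 genes was saturated or marked as an outlier.

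Among the 4 tested genes, NR5A1 was higher in F1, STAR and CYP11A1 differed in opposite directions without passing the threshold, and HSD3B1 overlapped between the groups. The groups were fully separated for 3 of the 4, against 49.2% of all tested probes. The same 3 had an unadjusted limma p under 0.05, against 29.2% of all tested probes. Of the separated genes STAR was higher in both F2, as were 15.7% of all tested probes, and CYP11A1 and NR5A1 were higher in all 3 F1, as were 33.4%. In RNA of a whole follicular wall, fewer cells of a type and less RNA per cell cannot be told apart.

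**Figure D1:**
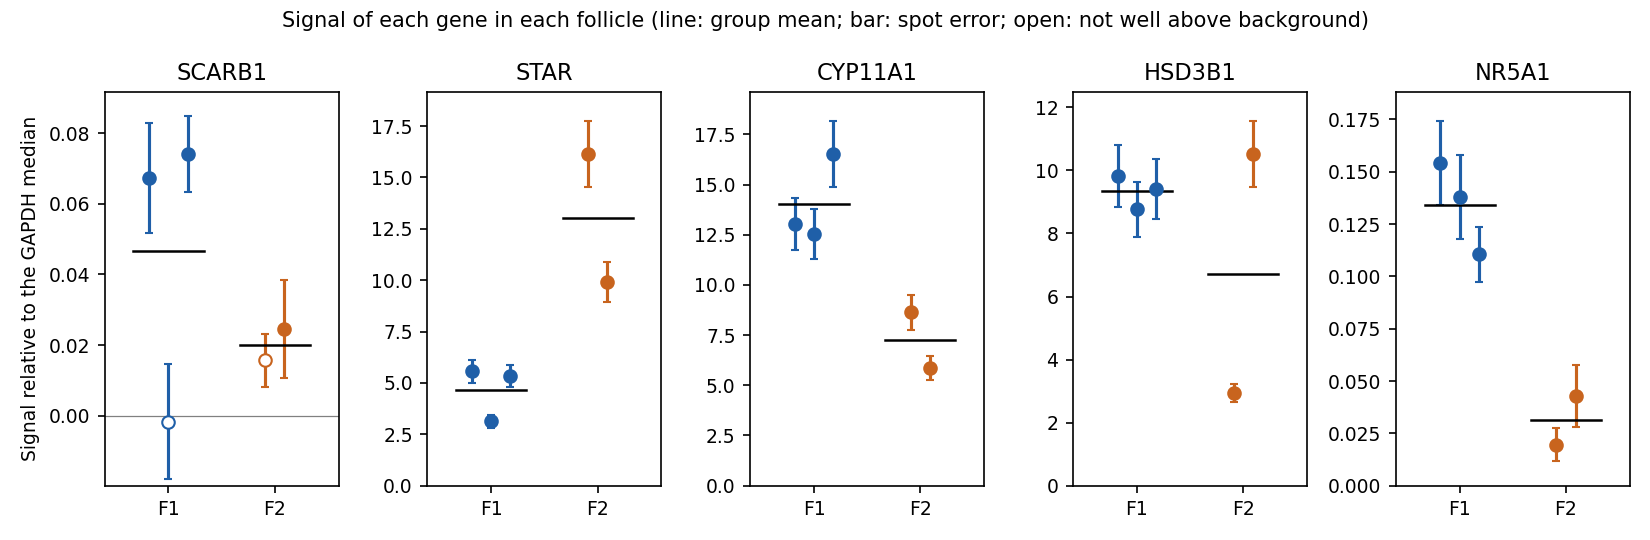
Signal of SCARB1, STAR, CYP11A1, HSD3B1 and NR5A1 relative to the GAPDH median (vertical axis, linear, own scale in each panel) in 3 F1 (blue) and 2 F2 (orange); black lines are group means, bars the error the scanner software gives for the spot, and open circles spots not well above background. STAR lies higher in both F2, CYP11A1 and NR5A1 higher in all F1, and the HSD3B1 signals of the F2 are 2.94 and 10.5, on either side of the F1.

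SCARB1 binds high-density lipoprotein and lets its cholesterol esters enter the cell. F1 replicates 1, 2 and 3 had signals of 0.0674, -0.00172 and 0.0740, and F2 replicates 1 and 2 had 0.0156 and 0.0244. It was well above background in F1 replicates 1 and 3 and in F2 replicate 2. F1 replicates 1 and 3 were higher than both F2, but F1 replicate 2 was lower than every other follicle, so the groups overlapped. F1 averaged 0.0466 ± 0.0419 (SD, n = 3) and F2 0.0200 ± 0.00622 (SD, n = 2). The spot error was 23.0% and 14.6% of the signal in F1 replicates 1 and 3, and 48.0% and 56.6% in the F2. No direction can be given for SCARB1. With all 5 follicles the difference of log2 values was -0.19 because the value of F1 replicate 2, below 0 after background subtraction, stands at the floor of 0.001. Without F1 replicate 2 it was 1.85, a value given without a test because F1 replicate 2 is the follicle that went the other way and F2 replicate 1 was not well above background.

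STAR encodes the steroidogenic acute regulatory protein, which controls the delivery of cholesterol to side-chain cleavage. F1 replicates 1, 2 and 3 had signals of 5.56, 3.14 and 5.33, and F2 replicates 1 and 2 had 16.1 and 9.91. Both F2 exceeded every F1, and the lower F2 was 1.78 times the highest F1. Within the groups the highest signal was 1.77 times the lowest in the F1 and 1.63 times in the F2, so the gap between the groups was about as wide as the spread inside them. The log2 difference F1 minus F2 was -1.48 (standard error 0.39, 95% interval -2.42 to -0.54), a 2.79-fold higher level in the F2 with limma adjusted p = 0.0593 (exact permutation test p = 0.1, two-sided, n = 3 and 2, the smallest this design allows). Of all tested probes, 7.72% had a difference as low or lower. The adjusted p lay on either side of 0.05 depending on the setting, between 0.000267 and 0.199 with all 5 follicles, and between 0.0934 and 0.351 with each follicle left out in turn. F2 were higher in each of these fits.

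CYP11A1 encodes cholesterol side-chain cleavage cytochrome P450, the enzyme that commits cholesterol to steroids. The F1 had signals of 13.0, 12.5 and 16.5, and the F2 had 8.64 and 5.86. All 3 F1 were higher than both F2, the lowest F1 being 1.45 times the highest F2. Means were 14.0 ± 2.16 (SD, n = 3) and 7.25 ± 1.97 (SD, n = 2). The log2 difference was 0.97 (standard error 0.31, 95% interval 0.22 to 1.72), or 1.96-fold more signal in F1, at an adjusted p of 0.0993 in limma. A difference as high or higher was seen in 14.9% of all tested probes. CYP11A1 was therefore not called, and both its direction and its 1.96-fold size are reported as a measured difference of 3 against 2 follicles.

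HSD3B1 converts pregnenolone to progesterone and sits at the end of the sequence. The 3 F1 were close together at 9.84, 8.77 and 9.41, while the F2 had 2.94 in replicate 1 and 10.5 in replicate 2. F2 replicate 1 was the lowest and F2 replicate 2 the highest of the 5 follicles. The difference between the F2 was 3.58-fold, against 1.12-fold between the highest and lowest F1. The log2 difference F1 minus F2 was 0.75 (standard error 0.54, 95% interval -0.54 to 2.04, limma adjusted p = 0.388). It was 1.67 without F2 replicate 2 (limma adjusted p = 0.0752) and -0.17 without F2 replicate 1 (limma adjusted p = 0.752), so its sign rested on which F2 was present.

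NR5A1 was the one gene of the 5 with an adjusted p under 0.05. The F1 had signals of 0.154, 0.138 and 0.111, and the F2 had 0.0196 and 0.0427. Every F1 was higher than both F2, the lowest F1 being 2.59 times the highest F2. F1 averaged 0.134 ± 0.0219 (SD, n = 3) and F2 0.0312 ± 0.0163 (SD, n = 2). The log2 difference was 2.20 (standard error 0.40, 95% interval 1.23 to 3.17), a 4.59-fold higher level in the F1 with limma adjusted p = 0.0205. Only 3.69% of all tested probes had a difference as high or higher. The F2 signals stood 1.36 and 2.57 times above the weakest signal well above background on their arrays, with spot errors of 40.0% and 34.4%. The call was lost without F1 replicate 1 (limma adjusted p = 0.0657) and without F2 replicate 1 (fold 3.11, limma adjusted p = 0.144). With normexp background correction, which adds an offset to every signal, the log2 difference was 0.91 (limma adjusted p = 0.0348).

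**Figure D2:**
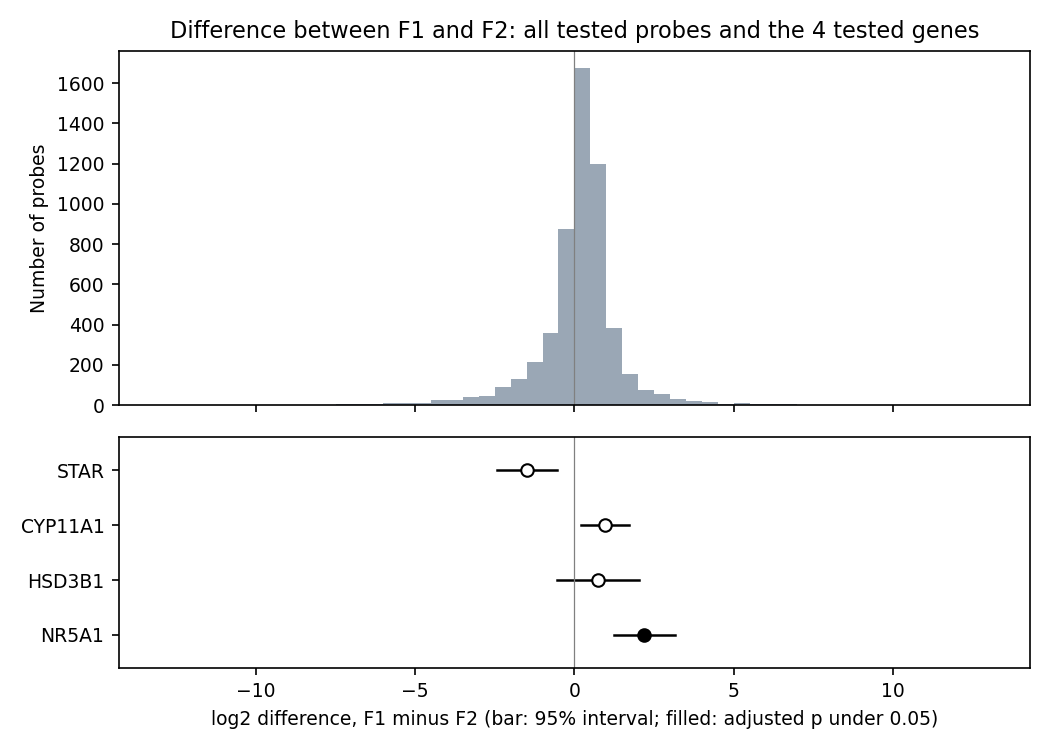
Upper panel: number of probes (vertical axis) by log2 difference F1 minus F2 (horizontal axis) for the 5528 tested probes; lower panel: the differences of STAR, CYP11A1, HSD3B1 and NR5A1 with their 95% intervals from limma, filled where the adjusted p was under 0.05. The difference of NR5A1, 2.20, lies in the upper tail and that of STAR, -1.48, in the lower, and the interval of HSD3B1 includes 0.

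Over all tested probes the median log2 difference was 0.27 after scaling to GAPDH and 0.06 after scaling to the 75th percentile of each array. Relative to the median of all probes, the differences were -1.75 for STAR, 0.69 for CYP11A1, 0.47 for HSD3B1 and 1.93 for NR5A1. With the 75th percentile in place of GAPDH, the differences themselves, not taken relative to a median, were -1.69 for STAR, 0.76 for CYP11A1, 0.54 for HSD3B1 and 1.99 for NR5A1. That scaling shifts all 4 differences by the same amount, which was too small to turn any of them. No direction of these 4 genes turned with quantile normalization either. With both, NR5A1 again was the only 1 of the 4 with a limma adjusted p under 0.05 (0.0119 and 0.00732, respectively).

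**Figure D3:**
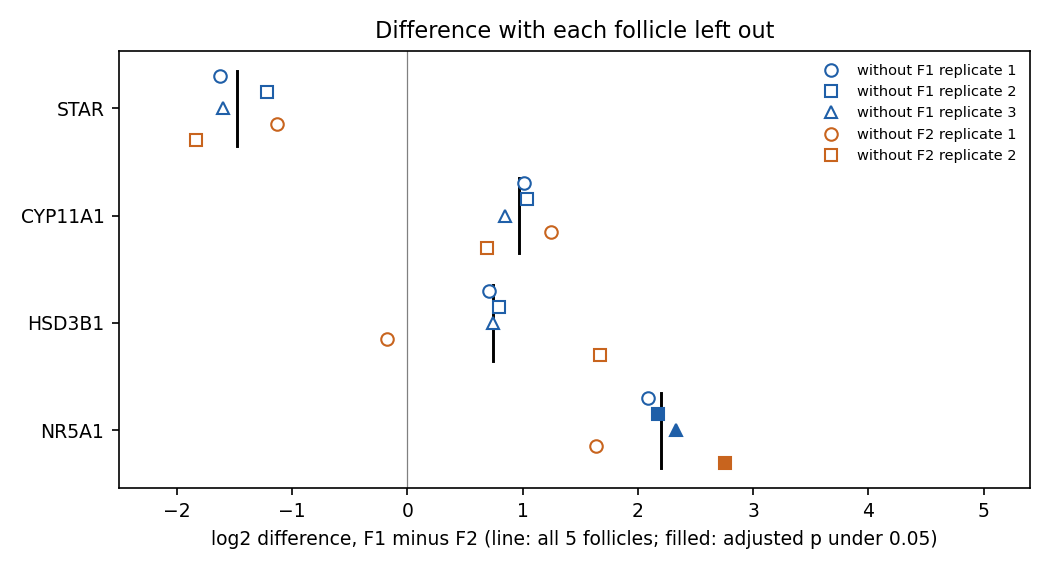
log2 difference F1 minus F2 (horizontal axis) of STAR, CYP11A1, HSD3B1 and NR5A1 with each follicle left out in turn; vertical lines give the value with all 5 follicles, colors and shapes the follicle left out, and filled symbols an adjusted p under 0.05. STAR stays negative and CYP11A1 and NR5A1 positive in all 5 fits, whereas HSD3B1 runs from -0.17 to 1.67.

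The order of the follicles differed from step to step. STAR ran from F2 replicate 1 at the top through F2 replicate 2 and F1 replicates 1 and 3 to F1 replicate 2. Gaps are given in combined spot errors, which hold the technical noise of single spots and no variation between animals, so they order follicles and do not test groups. F1 replicates 1 and 3 did not differ beyond their spot errors, since their signals were 0.296 combined errors apart. However, F1 replicate 2 lay 3.54 combined errors below F1 replicate 3, and F2 replicate 1 lay 3.28 above F2 replicate 2. CYP11A1 ran from F1 replicate 3 through F1 replicates 1 and 2 to F2 replicates 1 and 2. Neighbours among the F1 were 1.65 and 0.269 combined errors apart, the lowest F1 and the higher F2 were 2.56 apart, and the F2 were 2.66 apart, so the gap inside the F2 was as wide as that between the groups. For HSD3B1 the 4 highest follicles, all F1 and F2 replicate 2, were each less than 0.5 combined errors from the next, and F2 replicate 1 lay 6.31 below. NR5A1 ran from F1 replicate 1 through 2 and 3 to F2 replicates 2 and 1, with 3.45 combined errors from the lowest F1 to the higher F2 and 1.39 or less between other neighbours.

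Brightness of different probes cannot be compared as levels, so each gene was set against its own mean log2 value over the 5 follicles to follow the steps within a follicle. F2 replicate 1 stood at 1.24 for STAR, -0.30 for CYP11A1, -1.37 for HSD3B1 and -1.88 for NR5A1. F2 replicate 2 stood at 0.54, -0.86, 0.47 and -0.76 for the same genes. Both F2 were thus above their mean at cholesterol import and below it at side-chain cleavage and for NR5A1, and they parted at HSD3B1. The F1 stood between -1.12 and -0.30 for STAR, 0.24 and 0.63 for CYP11A1, 0.21 and 0.38 for HSD3B1, and 0.61 and 1.09 for NR5A1. Every F1 was below the mean for STAR and above it for the other 3.

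Ratios of consecutive steps, which do not depend on the scaling of an array by a constant, were compared between the groups. The log2 ratio of CYP11A1 over STAR was 2.45 higher in the F1 than in the F2, a 5.46-fold change of the ratio. Relative to the F1 mean, F1 replicates 1, 2 and 3 stood at -0.39, 0.38 and 0.01, and F2 replicates 1 and 2 at -2.52 and -2.38. The groups did not overlap, with the F1 spread over 0.38 (SD) and the F2 over 0.10 (SD). The exact permutation test gave p = 0.1, the smallest possible (two-sided, adjusted p = 0.3 over 3 ratios). Since STAR was higher in both F2 and CYP11A1 in every F1, their ratio had to separate the groups. The separation and the p of this ratio therefore restate the single genes and are no further support. With each follicle left out the change stayed between 2.26 and 2.64. The ratio of HSD3B1 over CYP11A1 changed by -0.22 (exact permutation p = 0.8, adjusted p = 0.8) with F2 values of -0.98 and 1.42 on either side of the F1. For STAR over SCARB1 the change was -1.29 (exact permutation p = 0.6, adjusted p = 0.8), with the SCARB1 value of F1 replicate 2 at the floor and that of F2 replicate 1 not well above background. It ran from -3.07 to -0.34 with a follicle left out, lowest without F1 replicate 2, and was -2.42 in the authors' values, so its size is not fixed by these data.

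**Figure D4:**
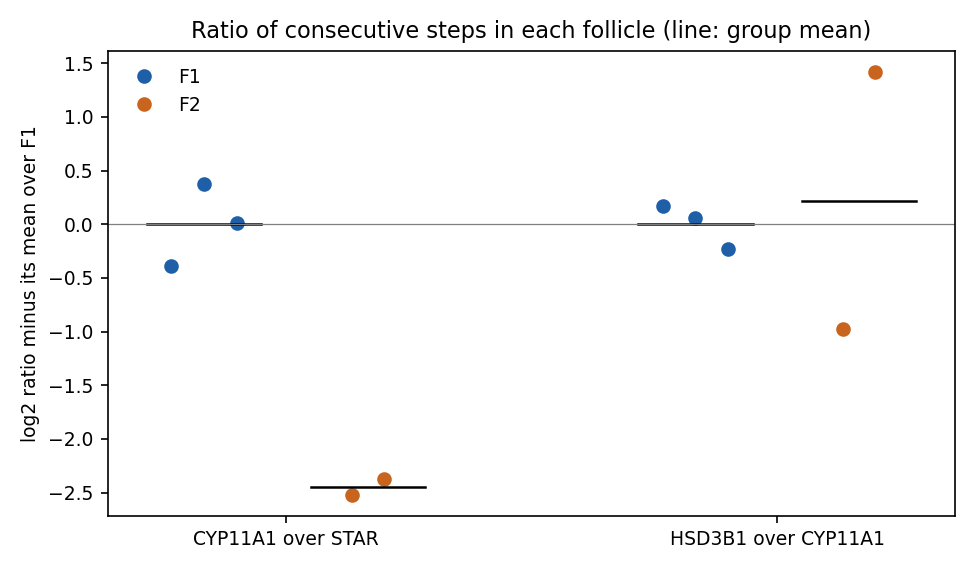
log2 ratio of the signals of consecutive steps in each follicle, minus the mean of that ratio over the F1 (vertical axis), for CYP11A1 over STAR and HSD3B1 over CYP11A1; blue points are F1, orange points F2, and lines group means. The CYP11A1 over STAR ratio lies at -2.52 and -2.38 in the F2, while the HSD3B1 over CYP11A1 ratios of the F2 lie on both sides of it.

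The wider pathway was described by lists of genes for uptake, storage, synthesis, import, cleavage, progesterone synthesis and removal, transcription factors, gonadotropin signalling and progesterone receptors. Of 86 listed genes besides the 5, 23 had a probe with a matched RefSeq name and 22 could be tested. Of these 22, 5 were higher in F1 and 3 higher in F2 with limma adjusted p under 0.05, and 14 did not pass. This was 36.4% of those tested, against 11.5% of all probes and 17.9% of the 833 tested probes with a RefSeq name. However, 4 of the 8, OLR1, AKR1C4, LHCGR and FSHR, met the filter only through the group in which they were high, so the share supports no statement about the pathway. With every array required to be well above background, 5 of 18 pathway genes passed (27.8%), against 13.7% of 4861 probes. The median log2 difference of the 22 was 0.23, close to the 0.27 of all probes. No direction of the 22 turned with quantile normalization or with the 75th percentile, which shifts all probes clear of the floor by the same amount. The count of 8 was 4 without F2 replicate 1, and 6 to 7 without each of the others. It was also 4 in the deposited values of the authors, where 17 of the genes could be tested, and 5 with no filter on weak probes. It was 9 with a floor of 0.01, and 10 with the 75th percentile, with quantile normalization and with an intensity trend.

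Beside STAR at the mitochondrion stood TSPO, the translocator protein of the outer membrane, which binds cholesterol. The F1 had 1.37, 1.64 and 1.74, and the F2 had 9.04 and 9.03. The F2 were nearly equal and all F1 far below them. F2 exceeded F1 by 5.74-fold (adjusted p = 0.00329 in limma, and 0.0548 without F2 replicate 1). VDAC1, the outer membrane channel, did not pass (log2 difference 0.54, limma adjusted p = 0.229).

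For FDXR, which passes electrons from NADPH to ferredoxin, the F1 had 19.7, 13.0 and 18.1, and the F2 had 3.08 and 2.01. Every F1 lay far above both F2. The F1 level was 6.70 times the F2 level (adjusted p = 0.00514 in limma), and without F2 replicates 1 and 2 in turn the adjusted p was 0.0634 and 0.0636. CYB5A, cytochrome b5, which aids the lyase reaction of CYP17A1, averaged 0.473 ± 0.162 (SD, n = 3) in F1 and 0.0530 ± 0.0212 (SD, n = 2) in F2. This was an 8.89-fold excess in F1 (adjusted p = 0.00819 in limma). The log2 difference of CYB5A, 3.15, became 2.73 and 3.57 without F2 replicates 1 and 2 in turn, and 1.81 with normexp. CYB5A lost its call in both of the fits that left out an F2, each of which holds a single F2. With no filter on weak probes neither FDXR nor CYB5A passed (limma adjusted p = 0.0575 and 0.0939). FDX1, the ferredoxin that serves CYP11A1 directly, was not called, although its F1 signals of 0.476, 0.429 and 0.329 all exceeded the F2 signals of 0.181 and 0.245 (log2 difference 0.95, limma adjusted p = 0.104). Its call depended on the scaling, as scaling to the 75th percentile gave an adjusted p of 0.0485 and quantile normalization one of 0.0423.

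In the uptake list OLR1, the receptor of oxidized low-density lipoprotein, did not clear background in an F1 and had 0.574 and 0.283 in F2 replicates 1 and 2. The F2 level was at least 24.1-fold higher (adjusted p = 9.78e-05 in limma). This bound, and those that follow, set each follicle of the dimmer group at the weakest signal well above background on its array. For OLR1, AKR1C4 and LHCGR the dimmer group stood at the floor of 0.001, with no spread. The adjusted p-values of these genes and of FSHR are therefore set in part by the filter and the floor, and are given as output of the fit and not as support. OLR1 and FSHR are also on lists the study chose on these arrays, so their direction is not independent evidence. CD36, a fatty acid and lipoprotein receptor, and VLDLR, the receptor of very low-density lipoprotein, did not pass, with log2 differences of 0.97 and -0.79.

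None of the 5 tested genes of cholesterol storage and transport passed in limma, although 1, PLIN2, had an unadjusted p under 0.05. ABCG1, also on this list, had no probe with a matched name and was not tested. The study lists a sequence similar to ABCG1 among its genes higher in F2. APOA1 and APOE, the apolipoproteins of high-density lipoprotein and of lipoprotein remnants, had log2 differences of -0.27 and -0.17. PLIN2, which coats lipid droplets and was chosen for the text after its values were seen, had F1 signals of 7.69, 4.02 and 3.72 and F2 signals of 11.5 and 23.1 (log2 difference -1.74, limma adjusted p = 0.0616). Its call depended on the setting, as scaling to the 75th percentile gave an adjusted p of 0.0239, quantile normalization 0.0297, requiring all arrays above background 0.0206, normexp 3.84e-06 and no filter 0.235. FDPS, the only gene of cholesterol synthesis with a matched probe of 23 listed, had a log2 difference of 1.09 (limma adjusted p = 0.0960, and 0.00822 with normexp).

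AKR1C4, an aldo-keto reductase of steroids, did not clear background in an F1 and had 0.0351 and 0.0575 in F2 replicates 1 and 2, a level at least 2.69-fold higher (adjusted p = 0.000198 in limma). Its adjusted p was 0.678 with normexp background correction. Beside NR5A1, 3 transcription factors could be tested and did not pass, among them CEBPB and NR2F2 with log2 differences of 0.83 and -1.04.

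Of the gonadotropin signalling genes, LHCGR, the LH receptor, had F1 signals of 0.0329, 0.0335 and 0.0352 and did not clear background in either F2. The F1 level was at least 2.18-fold higher (adjusted p = 0.000138 in limma, and 0.289 with normexp). FSHR, the FSH receptor, was not well above background in the F2 either, with F1 signals of 0.543, 0.827 and 0.545, at least 40.3-fold higher (adjusted p = 0.000331 in limma). PRKAR2B, a regulatory subunit of protein kinase A, was 4.66-fold higher in the F1, with 1.32, 1.62 and 1.28 against 0.163 and 0.551 (limma adjusted p = 0.0450). PRKAR2B kept its call without F2 replicate 2 alone, where the adjusted p was 0.0268, and had 0.0875 to 0.163 without each other follicle. The catalytic subunit PRKACA had a log2 difference of -0.19 (limma adjusted p = 0.678).

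**Figure D5:**
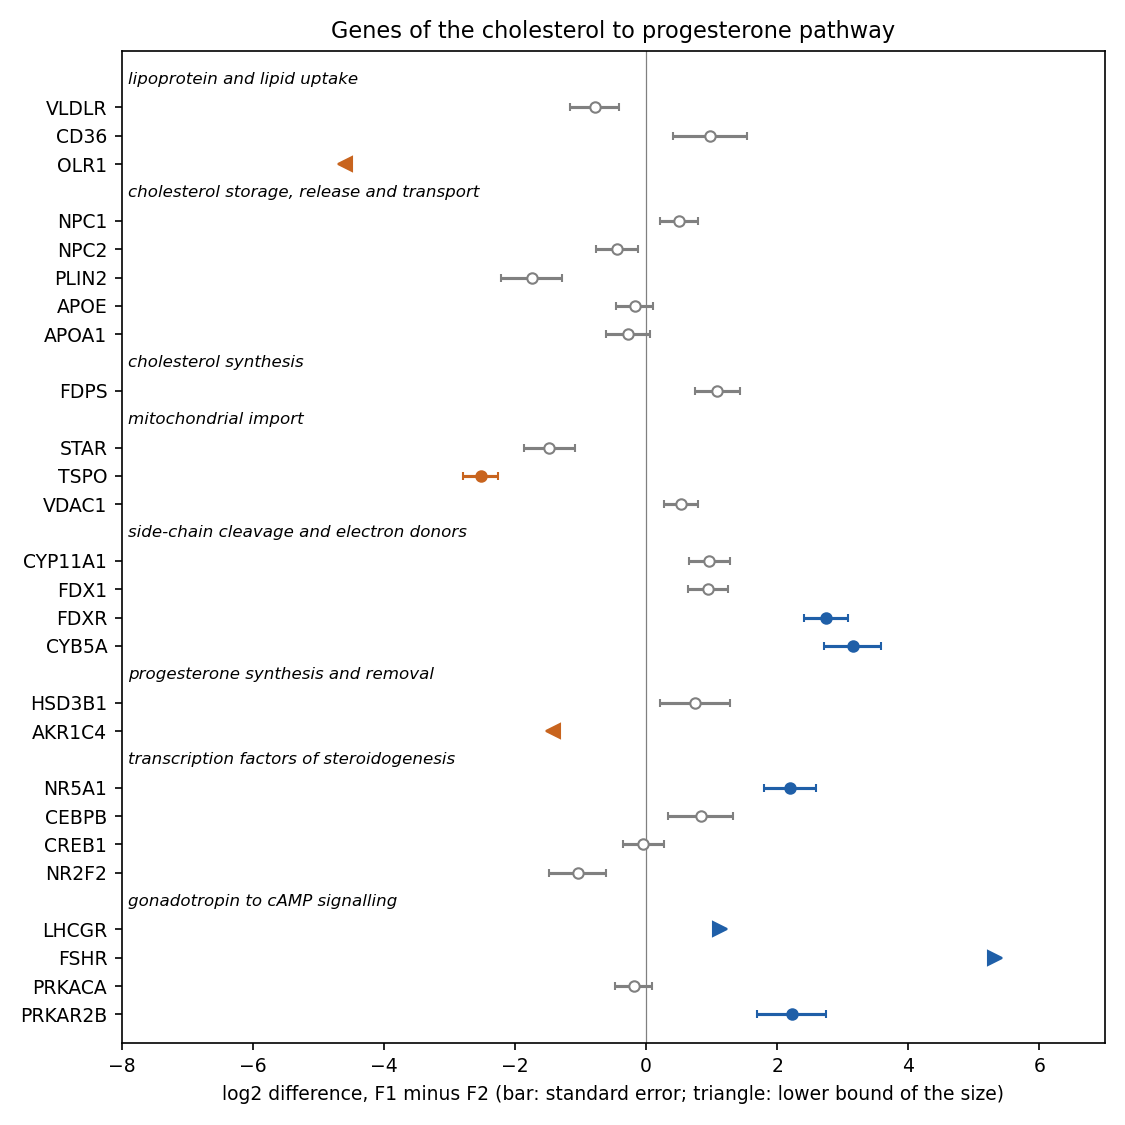
log2 difference F1 minus F2 (horizontal axis) with standard errors from limma for the tested genes of the pathway lists; filled blue symbols passed and were higher in F1, filled orange symbols passed and were higher in F2, open grey symbols did not pass, and triangles are lower bounds for genes not well above background in a whole group. TSPO lies at -2.52 below STAR at -1.48 among the import genes, and FDXR at 2.74 lies above CYP11A1 at 0.97 among the cleavage genes. CYB5A, listed with them but acting with CYP17A1, lies at 3.15.

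Most granulosa and theca markers differed between the groups, and most endothelial, stromal and oocyte markers did not pass. Of the granulosa list, 8 of 10 genes had a probe, here meaning one with a matched RefSeq name, and all 8 were higher in F1. Their summed signal ranged over 259.01 to 356.6 in F1 and 15.2 to 20.9 in F2. All of the 8 but GJA1 are on a list the study chose on these arrays for being higher in F1, so this count is not independent evidence. HSD17B1, which had no matched name, is on that list of the study too. In 5 of the 8 a spot was saturated on at least 1 array, which makes the F1 sums lower limits. CYP19A1, aromatase, had F1 signals of 18.5, 5.50 and 12.6 and F2 signals of 0.00650 and 0.0279. Of the theca interna list, 4 of 6 had a probe and 3 were higher in F1, with NR2F2 not passing. Among these 3 is LHCGR, which does not mark theca alone, since the paper describes LH receptor expression in granulosa cells too. LHCGR here, and FSHR and CYP19A1 of the granulosa list, met the filter only through the F1, so their calls are not support. Of all tested probes, 6.39% were called higher in F1 and 5.08% higher in F2. The theca interna list summed to 41.0 to 81.1 in F1 and 4.46 to 5.97 in F2. CYP17A1 and INSL3, which define theca cells, were 15.4-fold and 11.5-fold higher in F1 (limma adjusted p = 0.00132 and 0.00394), INSL3 was saturated in 2 follicles, and CYP17A1 is on the same list of the study. Of the leukocyte list, 3 of 9 had a probe, summing to 0.0426 to 0.0589 in F1 and 0.148 to 0.230 in F2, and both tested genes, CD14 and CD3E, were higher in F2. With normexp neither passed (limma adjusted p = 0.188 and 0.746), and CD3E met the filter only through the F2. Of 6 endothelial probes, 4 were tested and 1, SELP, was higher in F2, while PECAM1 did not pass (log2 difference -0.89) and CDH5 and SELE were not well above background anywhere. The endothelial sum was 0.157 to 0.250 in F1 and 0.763 to 1.11 in F2, nearly all of the latter from SELP, which the study also listed. Without SELP it was 0.113 to 0.166 in F1 and 0.127 to 0.249 in F2, which overlap. The stroma and smooth muscle sum was 5.63 to 9.34 in F1 and 9.79 to 16.8 in F2, with LUM called higher in F2 and COL1A2 and DCN not passing (the limma adjusted p of DCN was 0.0265 with normexp). Of the oocyte list, 4 of 6 genes had a probe and the sums overlapped, at 0.189 to 0.312 in F1 and 0.197 to 0.305 in F2. ZP2 was well above background on 1 array of each group, ZP4 and GDF9 on none, and ZP3, the only one tested, did not pass (limma adjusted p = 0.875). The part of these cell types in the differences of NR5A1, STAR, CYP11A1, TSPO, FDXR and CYB5A was not tested.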

How the data were processed

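Total RNA of the wall of 3 F1 and 2 F2 was measured on 5 one-color arrays, scanned on 1 day on 5 slides, so neither could be a block. The authors deposited scanner files with processed, mean and background intensity and the spot error (Feature Extraction 9.5.3.1 per the file headers), and a table of the ratio of processed signal to the GAPDH median. That table equalled the scanner values so divided to within rounding. Signals were divided by the GAPDH median, raised to a floor of 0.001, put on the log2 scale and fitted without a block in limma 3.58.1 under R 4.3.3 (lmFit, eBayes). The test was tried on simulated data. RefSeq names (ARS-UCD2.0 table) matched 1364 of 1415 RefSeq probes. Other probes were not named.

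The genes, lists and rules were chosen with earlier results of these data known. Text names the 5 genes, every called pathway gene, up to 2 uncalled genes per list by mean signal, the first 2 probed markers of a list, and the 3 named probes most like each gene. PLIN2 and the other markers named (GJA1, NR2F2, SELP, SELE, LUM, ZP4, GDF9) were chosen after their values were seen. ABCG1 and HSD17B1 are named from the lists of the study. Replicates are single follicles, some of which share a cow that is not identified here. Of the progesterone receptor genes none had a matched probe. Hormone and PCR data are not analysed here, and promoter and protein sequences were not used. Alternatives were the 75th percentile, quantile normalization, normexp (offset 50), the authors' values, a floor of 0.01, other filters, an intensity trend, no saturated probes, a replicate block and leaving out each follicle. They were also run, after the data were seen, on the called pathway genes.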

Additional observations from a re-analysis of the deposited data

How the results depend on the processing

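STAR, CYP11A1 and NR5A1 and the CYP11A1 over STAR ratio kept their direction under every alternative run for them. For STAR the log2 difference passed the threshold at -1.38 with normexp, -1.48 in the authors' values, with a floor of 0.01, with an intensity trend and when every array had to be well above background, and -1.60 with the replicate block (limma adjusted p = 0.0423). CYP11A1 passed at 0.93 with normexp and at 0.97 with the trend. NR5A1 missed it at 2.20 with no filter on weak probes (limma adjusted p = 0.130). SCARB1, at -0.19 with all follicles, turned to 0.41 with normexp, 0.91 with a floor of 0.01 and 1.55 in the authors' values, which are blank for F1 replicate 2 and F2 replicate 1.

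Leaving out each follicle in turn gave log2 differences of -1.25 to 1.85 for SCARB1 (1.85 without F1 replicate 2 and 0.13 without F2 replicate 2), -1.83 to -1.13 for STAR, 0.69 to 1.25 for CYP11A1, -0.17 to 1.67 for HSD3B1 and 1.64 to 2.76 for NR5A1, and the HSD3B1 over CYP11A1 ratio from -1.42 to 0.98 (0.98 without F2 replicate 2). The 634 calls over all probes became 214 with no filter and 160 to 550 with a follicle left out, lowest without F2 replicate 1, and lay between 578 and 901 under the other alternatives, highest with quantile normalization. Leaving out an F2 leaves 1 follicle, assumed to vary like the F1. The 578 were with the replicate block. F1 replicate 3 stands alone in its block, so that fit gives the same differences as leaving this follicle out. Nothing says that replicate numbers pair follicles. The correlations of deviations between follicles of the same number were 0.039 and 0.13. They cannot decide this, because with 2 F2 the correlation to the other F2 is always the same value with the sign turned. Besides STAR the block changed no call among the tested genes, CYP11A1 standing at 0.84, HSD3B1 at 0.74 and NR5A1 at 2.33. For all other changes the cause was not tested. Signals near background limit SCARB1 and the F2 values of NR5A1.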

Other observations

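Among named probes well above background on all 5 arrays, those whose log2 values ran most like each gene over the 5 follicles were listed by Pearson correlation, as a description, with the follicles and their grouping shared by every pair. For STAR these were FABP3 (r = 0.969), a fatty acid binding protein, GPX4 (r = 0.961), a glutathione peroxidase of membrane lipids, and PLAT (r = 0.949), tissue plasminogen activator. FABP3 had F1 signals of 0.211, 0.109 and 0.160 and F2 signals of 0.496 and 0.246, with F2 replicate 1 highest and F1 replicate 2 lowest as for STAR. For CYP11A1 they were ATP5F1B (r = 0.978), a subunit of mitochondrial ATP synthase, ACADVL (r = 0.974), which starts the oxidation of very long fatty acids, and PAFAH2 (r = 0.959).

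For HSD3B1 they were PAPOLA (r = 0.993), CAV2 (r = 0.979) and ATP2C1 (r = 0.978). PAPOLA, a poly(A) polymerase, had 0.910 in F2 replicate 1 and 1.26 to 1.33 in the other 4 follicles. For NR5A1 they were JUP (r = 0.999), or plakoglobin, and COX8A (r = 0.998) and NDUFB1 (r = 0.996) of the respiratory chain. JUP had F1 signals of 1.39, 1.31 and 1.23 and F2 signals of 0.527 and 0.758. Of the 734 probes compared, 78 had r over 0.95 to NR5A1, against 2 to STAR, 4 to CYP11A1 and 5 to HSD3B1. For SCARB1, where F1 replicate 2 at the floor sets most of the variation, they were CREB1 (r = 0.961), ST6GALNAC4 (r = 0.914) and SNURF (r = 0.864).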
